A study of Mus musculus with 25 samples.

Results

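Replication-dependent histone genes are the gene family that makes the bulk of the histone proteins H1, H2A, H2B, H3 and H4, and the data on them come from RNA-seq of mouse macrophages. The family was taken as every gene symbol in the deposited count files that starts with Hist1h, Hist2h, Hist3h or Hist4h, which gave 68 genes of 24411 symbols. By the protein each symbol names, 6 of them were H1 genes, 18 H2A genes, 19 H2B genes, 12 H3 genes and 13 H4 genes. By the cluster each symbol names, 54 were Hist1 genes on chromosome 13, 10 were Hist2 genes on chromosome 3, 3 were Hist3 genes on chromosome 11 and 1 was the Hist4 gene on chromosome 6.

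The study compared macrophage activation states in 25 RNA-seq libraries from 9 conditions. Bone marrow-derived macrophages (BMDMs) were grown from C57BL/6 mice with macrophage colony-stimulating factor. Control BMDMs were left untreated and cultured for 4 h (n = 3). Other BMDMs were given IFN-γ at 100 U/ml and the bacterial product LPS at 100 ng/ml, labelled 1, 4, 12 or 24 h (n = 3 each). This treatment is called IFN-γ-primed LPS and is written IFN-LPS in the plots. The paper describes IFN-γ as a pretreatment and gives no length for it. Exposure to IFN-γ may therefore have been longer than the labelled times. Further BMDMs were given IL-4 or IL-13 at 10 ng/ml for 12 h (n = 3 each). RAW264.7 cells, an established mouse macrophage line that divides continuously in culture, were left untreated for 4 h or were given LPS alone at 100 ng/ml for 4 h (n = 2 each). The untreated 4 h BMDM cultures were the control in every BMDM comparison. By the labels, the 1, 12 and 24 h cultures therefore also differed from the control in time in culture. RAW264.7 cells were grown in another medium and received no IFN-γ. The paper traces this line to Balb/c mice infected with Abelson murine leukemia virus, so the strain differs too.

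Replication-dependent histone mRNAs are made mainly in S phase, when a cell copies its DNA and needs new histones to package it. They are the main animal mRNAs without a poly(A) tail: the 3′ end is cut just past a short stem-loop, which the stem-loop binding protein SLBP recognises, and the mRNA is broken down quickly when DNA synthesis stops. A few of these genes can also make an mRNA that runs past the stem-loop to a poly(A) site, a form known from cells that have stopped dividing. The labels name the molecule as polyA RNA, whereas the protocol describes removal of ribosomal RNA and random priming, a procedure that keeps RNA without a tail. BMDMs divide while they grow in M-CSF, and activation by LPS or IFN-γ is known to arrest them.

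The stem-loop is shown for the 8 genes below because it is the element that sets this family apart and because these genes carry results given further on. It was searched for in GENCODE transcripts of the mm10 build (GRCm38) as a stem of 6 base pairs starting with GG around a loop of 4 bases. Each sequence is 5′ to 3′ in the direction of transcription, written as DNA, and lies in the annotated 3′ UTR. Capitals mark the 16 bases of the stem-loop.
Hist1h1c (chr13:23739507-23739532, plus strand): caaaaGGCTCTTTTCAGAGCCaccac
Hist1h3c (chr13:23745042-23745067, minus strand): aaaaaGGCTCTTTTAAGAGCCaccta
Hist1h4d (chr13:23581945-23581970, plus strand): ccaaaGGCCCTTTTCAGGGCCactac
Hist1h4f (chr13:23551286-23551311, minus strand): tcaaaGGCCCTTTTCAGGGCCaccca
Hist1h2bg (chr13:23571838-23571863, plus strand): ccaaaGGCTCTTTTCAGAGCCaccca
Hist2h2ac (chr3:96220413-96220438, minus strand): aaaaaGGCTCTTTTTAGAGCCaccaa
Hist2h4 (chr3:96262934-96262959, minus strand): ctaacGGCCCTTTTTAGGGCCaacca
Hist3h2a (chr11:58955167-58955192, plus strand): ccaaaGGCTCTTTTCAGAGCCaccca

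The stem-loop was found in 44 of the 68 genes, out of 51 that had annotated bases after the stop codon to search. It began 21 to 58 bases after the stop codon (median 31.0) and took 6 forms, of which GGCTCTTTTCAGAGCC was carried by 26 genes. Over all of GENCODE, 68 of 55341 symbols (0.123%) held such a stem-loop anywhere in a transcript, and 44 of these 68 were genes of this family.

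The promoters of Hist1h1c and Hist2h2bb, 2 of the 12 genes with the highest levels, are shown because their class-specific motifs differ. The sequences are from RefSeq (GRCm38.p6, plus strand), 5′ to 3′, with 250 bases before and 50 bases after the annotated start. Capitals mark matches on either strand to the letters CCAAT (the element bound by NF-Y), to the octamer ATTTGCAT known from H2B promoters, or to AAACACA, known from H1 promoters. The run ATTGG in the Hist2h2bb promoter is the first of these on the other strand. The letters TATAAA were also searched and are in neither of these promoters.
Hist1h1c (chr13:23738557-23738856): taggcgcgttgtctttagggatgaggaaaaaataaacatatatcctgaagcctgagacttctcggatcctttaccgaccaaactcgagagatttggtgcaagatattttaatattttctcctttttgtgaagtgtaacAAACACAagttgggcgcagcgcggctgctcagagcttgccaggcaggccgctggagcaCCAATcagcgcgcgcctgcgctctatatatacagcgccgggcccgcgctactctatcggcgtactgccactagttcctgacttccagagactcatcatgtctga
Hist2h2bb (chr3:96269450-96269749): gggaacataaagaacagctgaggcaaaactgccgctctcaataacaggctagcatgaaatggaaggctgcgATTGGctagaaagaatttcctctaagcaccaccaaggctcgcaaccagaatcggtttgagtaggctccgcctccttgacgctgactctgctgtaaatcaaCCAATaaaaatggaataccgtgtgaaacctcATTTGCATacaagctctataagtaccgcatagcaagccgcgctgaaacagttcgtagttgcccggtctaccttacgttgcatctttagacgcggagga

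RefSeq gave 62 promoters for 61 of the 68 genes. CCAAT was present in 85.5% of them (53 of 62), beside 37.4% of all 32851 promoters of the same length. TATAAA was present in 56.5%, beside 13.6% of all promoters. ATTTGCAT was present in 22.6%, beside 1.74%, and all 14 promoters that held it belonged to H2A (7 of 17) or H2B genes (7 of 17). AAACACA was present in 14.5%, beside 7.18%, and in 5 of 6 H1 promoters. CCAAT was present in every H1, H2A, H2B and H3 promoter and in 3 of 12 H4 promoters. Some H2A and H2B genes lie head to head, so that their windows overlap and 1 match can count for both genes. On chromosome 13, for instance, the minus-strand gene Hist1h2ae ends at 23571220 and the plus-strand gene Hist1h2bg starts at 23571396. The promoters are therefore not all separate, and the overlap was not removed. These are matches of letters in a window and were not tested as binding sites.

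Each library held 2378639 to 3357300 uniquely mapped sense counts on genes, of which 20.1 to 39.8% fell on Rn45s, the ribosomal RNA precursor, and 1502618 to 2532496 remained without it. Levels are given as CPM, the count of a gene scaled to a library of 1000000 counts without Rn45s. The histone genes received 675 to 2564 counts in a BMDM library and 21166 to 41782 in a RAW264.7 library. Antisense counts were 0.177 to 1.58% of the sense and antisense counts on the family. Macrophage markers summed to 11238 to 30876 CPM in all 25 libraries, with Mertk at 0 in RAW264.7 cells. Neutrophil markers summed to at most 7.98 CPM and B cell markers to at most 0.511, and T cell and erythroid markers were at 0 in every library. Markers of stromal cells summed to 79.2 to 116 CPM in control BMDMs, to values between 46.8 and 83.7 CPM in the libraries given IFN-γ-primed LPS (lowest upper end, 63.9, at 12 h), to 57.9 to 96.0 with IL-4, to 64.9 to 109 with IL-13 and to 0 in RAW264.7 cells, and their part in the histone results was not tested. The share of Rn45s counts on the antisense strand was 0.0386 to 0.122% in the control, 1, 4 and 12 h libraries and 0.00603 to 0.0214% in the 24 h, IL-4 and IL-13 libraries. These sets of libraries therefore stood apart, and whatever separates them cannot be told apart from the treatments where 24 h, IL-4 or IL-13 is compared with the control. The comparisons of 1, 4 and 12 h with the control and of IL-13 with IL-4 lie within one set. In the RAW264.7 libraries this share was 0.0199 to 0.0283%, below that of the BMDM control.

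Summed over the 68 genes, histone mRNA was highest in RAW264.7 cells, intermediate in untreated BMDMs and lowest in BMDMs given IFN-γ-primed LPS. Control BMDMs held 1446 ± 68.1 CPM (SD, n = 3), with 1525, 1414 and 1400 CPM in the individual libraries. After IFN-γ-primed LPS it was 587 ± 43.0, 449 ± 90.4, 430 ± 19.0 and 621 ± 24.6 CPM at 1, 4, 12 and 24 h (SD, n = 3 each). In the order of the replicates, the libraries held 628, 589 and 542 CPM at 1 h and 550, 376 and 420 CPM at 4 h. The means were 40.6, 31.0, 29.8 and 43.0% of the control mean. The highest of these 12 libraries, at 641 CPM, was below the lowest control library. With IL-4 the sum was 962 ± 27.4 CPM and with IL-13 it was 927 ± 76.5 CPM (SD, n = 3 each), or 66.5 and 64.1% of the control mean. Both groups lay below every control library and above every IFN-γ-primed LPS library. RAW264.7 cells held 17891 and 19559 CPM untreated and 10207 and 8849 CPM with LPS. In the order of the levels, IL-4 and IL-13 overlapped, as did 24 h and 1 h, 1 h and 4 h, and 4 h and 12 h. In these bulk samples, fewer cells in S phase and less histone mRNA per cell cannot be told apart.

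**Figure D1:**
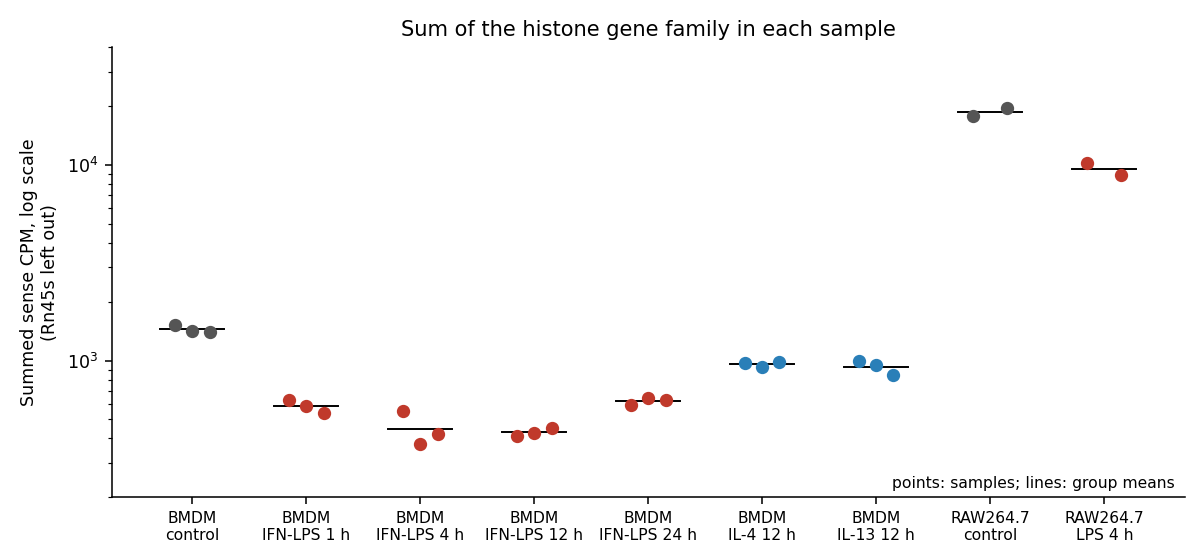
Summed CPM of the 68 histone genes (vertical axis, log scale) in each library, by condition, with points for libraries and horizontal lines for condition means. The 12 libraries given IFN-γ-primed LPS lie between 376 and 641 CPM, below the IL-4 and IL-13 libraries (842 to 991 CPM), the control BMDMs (1400 to 1525 CPM) and all 4 RAW264.7 libraries (8849 to 19559 CPM).

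The shares of the 5 protein classes in the family's counts varied with the condition. H1 genes, which encode the linker histones that bind between nucleosomes, made up 23.0 ± 0.834% of histone counts in control BMDMs and 18.3 ± 1.21, 11.6 ± 0.528, 14.6 ± 1.86 and 17.2 ± 0.648% after 1, 4, 12 and 24 h of IFN-γ-primed LPS (SD, n = 3 each). H3 genes went from 14.8 ± 1.43% in the control to 9.11 ± 1.15% at 12 h, and H4 genes from 25.4 ± 1.94% in the control to 34.4 ± 2.72% at 4 h. With IL-4 the H1 share was 22.3 ± 1.25% and with IL-13 it was 20.9 ± 0.642%. In untreated RAW264.7 cells the H2B share was 31.2% and the H1 share 15.6% (n = 2), beside 24.6% and 23.0% in control BMDMs. These shares are given as a description and were not tested.

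Compared per kilobase of the RefSeq gene span, the highest levels in control BMDMs were those of Hist1h4d (231 CPM per kilobase), Hist1h1c (215), Hist1h4h (133), Hist1h4c (108) and Hist2h2bb (106). In untreated RAW264.7 cells the order was led by Hist2h2bb (4307 CPM per kilobase), followed by Hist1h4d (2483), Hist1h4f (1949), Hist2h4 (1690), Hist1h2bb (1374) and Hist1h1c (1272). This comparison covers the 61 genes with a RefSeq span under 1000 bases, and transcripts annotated as longer elsewhere would have lower values.

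Each comparison was tested in a single edgeR quasi-likelihood fit over all 25 libraries with TMM scaling, and a gene was called at a Benjamini-Hochberg adjusted p of at most 0.01. The fit tested 10612 genes, 55 of them histone genes. The other 13 had too few counts. Fold changes are log2 values after TMM scaling, whereas the levels above are CPM by library size. Ratios, at-least folds and bounds for genes with few counts are from pooled counts by library size, without TMM.

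Most tested histone genes were lower than in the control at every time of IFN-γ-primed LPS, already in the earliest samples at 1 h. No sample had IFN-γ alone, so a fall during priming cannot be told apart from one after LPS. At 1 h, 35 of 55 were lower and 0 higher, beside 10.3% of all tested genes lower and 14.7% higher. At 4 h, 40 were lower and 0 higher (all genes 23.2% lower and 25.3% higher). At 12 h, 44 were lower and 1 higher (all genes 21.6% lower and 23.2% higher). At 24 h, 38 were lower and 0 higher (all genes 20.5% lower and 22.3% higher). The median log2 change of the 55 genes was -1.12, -1.46, -1.63 and -1.23 at the 4 times, beside -0.02, -0.09, -0.02 and -0.01 over all tested genes. With genes at 0 counts set to their bounds the medians at 4 and 12 h were -1.40 and -1.62. At an unadjusted p under 0.05 there were 43, 48, 49 and 42 genes, and DESeq2 called 34, 37, 43 and 35.

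In all, 27 of the 55 genes were lower at each of the 4 times and 49 at 1 or more of them. The 4 comparisons use the same control libraries, and the matching shares over all tested genes were not counted. The 6 that were never called lower were Hist1h2ah, Hist1h2an, Hist1h2bp, Hist1h4i, Hist2h2ab and Hist3h2bb-ps, all with control means below 10 CPM in BMDMs. By class, lower calls at 1, 4, 12 and 24 h numbered 5, 5, 5 and 5 of 5 H1 genes, 5, 7, 8 and 8 of 13 H2A genes, 10, 10, 10 and 8 of 15 H2B genes, 8, 10, 10 and 10 of 10 H3 genes, and 7, 8, 11 and 7 of 12 H4 genes.

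**Figure D2:**
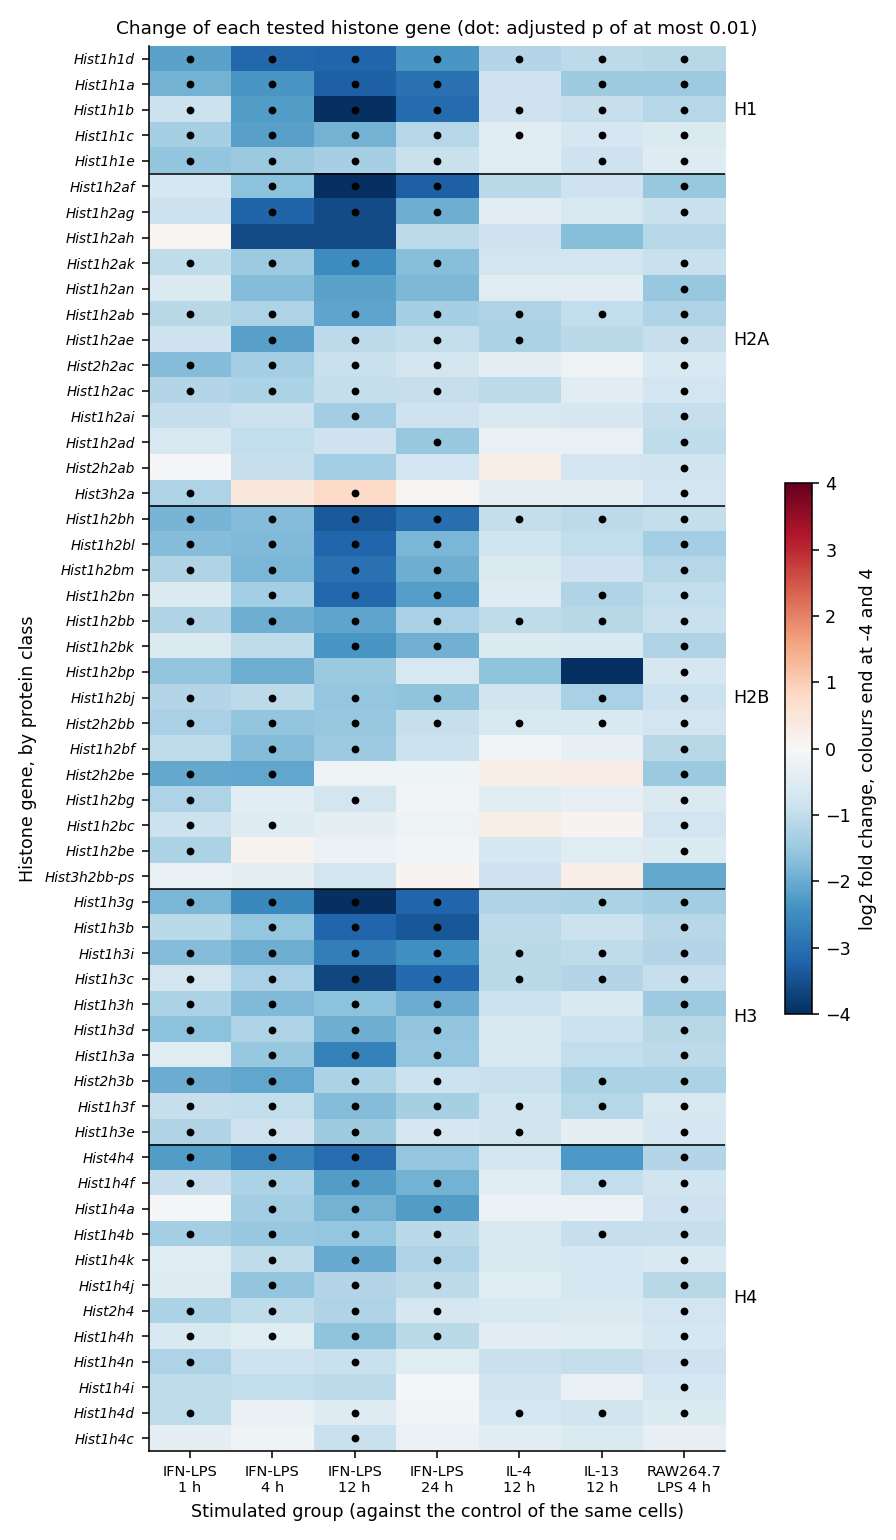
Log2 fold change (colour, ending at 4 in either direction) of the 55 tested histone genes, in rows grouped by protein class, in 7 comparisons, with a dot where the edgeR adjusted p was at most 0.01. Dots fill the IFN-γ-primed LPS columns (35, 40, 44 lower with 1 higher, and 38 lower) and the RAW264.7 LPS column (52 lower) more than the IL-4 and IL-13 columns (13 and 19 lower). The colours of Hist1h2af at 12 h, Hist1h2ah at 4 and 12 h and Hist1h2bp with IL-13 are fitted values for groups with 0 counts and not measured folds.

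By the median over its genes H1 fell furthest of the classes, with medians of -1.59, -2.23, -3.16 and -2.34 at 1, 4, 12 and 24 h. In summed CPM, H1 went from 332 in the control to 62.6 at 12 h and 107 at 24 h. The H3 sum went from 214 to 39.1 and 60.9 CPM, so by sums H3 fell at least as far at these times. Hist1h1c, which encodes the linker histone H1.2, had 153, 148 and 168 CPM in the control, 52.6, 61.6 and 47.6 at 1 h, 28.0, 19.5 and 22.3 at 4 h, 36.3, 33.1 and 28.9 at 12 h and 62.3, 63.5 and 55.3 at 24 h. Every treated library was below every control library, with the lowest values at 4 h. The log2 change was -1.32 (SE 0.13, edgeR adjusted p = 1.34e-14) at 1 h and -2.18 (SE 0.15, edgeR adjusted p = 1.64e-21) at 4 h, and it was -1.15 at 24 h. Hist1h1b, which encodes H1.5, followed another course, with 47.6, 40.5 and 40.2 CPM in the control, 30.3, 14.5 and 16.2 at 1 h, 9.32, 5.01 and 4.21 at 4 h and 3.07, 2.28 and 0.963 at 12 h. Its log2 change was -0.85 (SE 0.19, edgeR adjusted p = 0.000193) at 1 h and reached -3.98 (SE 0.31, edgeR adjusted p = 6.34e-19) at 12 h. Hist1h1d (H1.3) had 41.6, 53.0 and 43.1 CPM in the control and 4.66, 2.78 and 3.01 at 4 h, a log2 change of -3.14 (SE 0.30, edgeR adjusted p = 6.65e-15). Hist1h1e (H1.4) had 76.7, 67.9 and 70.4 CPM in the control and 20.7, 21.1 and 19.5 at 1 h, and its log2 changes of -1.59, -1.50, -1.33 and -0.88 were largest in size at 1 h with TMM. With library size they were -1.81, -2.08, -1.68 and -1.11, largest at 4 h. Hist1h1a (H1.1) was the lowest of the 5, with 18.4, 16.7 and 11.6 CPM in the control and 1.02, 2.28 and 0.481 at 12 h.

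H2A genes, whose protein pairs with H2B in the nucleosome, had medians of -0.87, -1.36, -1.38 and -1.06. Hist2h2ac had 41.0, 38.7 and 34.9 CPM in the control and 9.04, 10.9 and 9.99 at 1 h, a log2 change of -1.72 (SE 0.24, edgeR adjusted p = 1.24e-08), and at 24 h it had 20.5, 23.0 and 15.4 CPM. Its groups did not overlap at either time. Hist1h2ab had 32.7, 23.8 and 19.2 CPM in the control and 4.09, 4.57 and 4.81 at 12 h, a log2 change of -2.12 (SE 0.29, edgeR adjusted p = 1.75e-09). Hist1h2af was at 0 counts in all 3 libraries at 12 h, beside 10.1, 11.9 and 9.31 CPM in the control (53 counts), which is at least 20.1-fold lower with the 12 h group set at 3 counts. Hist1h2ag had 31 control counts and 2 counts at 4 h, a ratio of 15.1 with a 95% counting interval of 3.85 to 131. These ratios and floors are by library size without TMM, and intervals and floors cover counting error only.

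Hist3h2a, an H2A gene outside the Hist1 cluster, was the exception in the time course. It had 25.6, 24.4 and 30.9 CPM in the control, 10.1, 7.86 and 11.4 at 1 h, 23.3, 22.8 and 25.9 at 4 h, 29.6, 39.4 and 39.0 at 12 h and 19.5, 27.6 and 24.5 at 24 h. The 1 h libraries lay below the control, the 4 h and 24 h libraries overlapped it, and 2 of the 3 12 h libraries lay above it. It fell at 1 h (log2 change -1.22, SE 0.23, edgeR adjusted p = 1.23e-05) and was the 1 histone gene called higher at 12 h (0.77, SE 0.18, edgeR adjusted p = 0.000148). With library size in place of TMM the 12 h change was 0.41 and was not called, and the 4 h change went from 0.41 to -0.17.

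H2B genes had medians of -1.20, -1.58, -1.51 and -0.92. Hist2h2bb had 50.5, 54.2 and 52.4 CPM in the control, 17.5, 15.7 and 20.5 at 1 h, 13.3, 8.35 and 13.8 at 4 h and 22.3, 21.2 and 26.9 at 24 h, with a log2 change at 4 h of -1.58 (SE 0.19, edgeR adjusted p = 5.5e-11). Hist1h2bb had 34.5, 38.1 and 26.2 CPM in the control and 4.09, 5.71 and 7.70 at 12 h, a log2 change of -2.12 (SE 0.25, edgeR adjusted p = 1.42e-11). In both genes no treated library reached the control range. Hist1h2bc, Hist1h2be and Hist1h2bg were called lower at 1 h and not at 24 h. Hist1h2bc had 70.8, 80.4 and 85.0 CPM in the control, 38.3, 39.9 and 35.2 at 1 h and 50.2, 66.2 and 60.4 at 24 h, and its log2 change was -0.85 at 1 h (SE 0.14, edgeR adjusted p = 1.07e-06) and -0.19 at 24 h. Hist1h2be had 23.8, 30.4 and 25.6 CPM in the control, 10.1, 7.86 and 9.99 at 1 h and 23.3, 18.4 and 17.5 at 4 h, with log2 changes of -1.28 (SE 0.22, edgeR adjusted p = 1.57e-06) and 0.14. The second was not called and was -0.44 with library size, and all 3 of its 4 h libraries lay below the control in CPM. Hist1h2bg had 44.0, 31.0 and 30.9 CPM in the control, 12.8, 15.7 and 10.9 at 1 h and 21.9, 34.9 and 26.9 at 24 h. Its log2 change was -1.22 at 1 h (SE 0.21, edgeR adjusted p = 1.09e-06) and -0.11 at 24 h. Hist1h2bj stayed low, with 20.8, 19.1 and 15.1 CPM in the control and 7.44, 4.60 and 3.55 at 24 h (log2 change -1.60, SE 0.32, edgeR adjusted p = 2.41e-05).

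Hist2h2be encodes H2BE, a form of H2B studied in olfactory neurons. It had 11.9, 8.94 and 10.5 CPM in the control, 1.59, 1.81 and 2.85 at 1 h, 0, 1.67 and 3.01 at 4 h, 9.20, 7.99 and 4.33 at 12 h and 6.98, 7.82 and 8.69 at 24 h. The 1 h and 4 h libraries lay below all others. The log2 change was -2.04 (SE 0.43, edgeR adjusted p = 8.28e-05) at 1 h, -2.08 (SE 0.49, edgeR adjusted p = 0.000187) at 4 h and -0.20 at 12 h, which was not called.

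H3 genes, whose protein pairs with H4 at the centre of the nucleosome, had medians of -1.22, -1.54, -2.32 and -1.78, and all 10 tested were lower from 4 h on. Hist1h3c had 38.6, 31.6 and 23.9 CPM in the control, 18.6, 16.9 and 12.8 at 1 h, 13.3, 6.12 and 6.62 at 4 h, 3.07, 1.71 and 0.963 at 12 h and 2.79, 2.76 and 3.55 at 24 h. Each later group up to 12 h lay below the one before it except for the overlap of 1 h and 4 h. Its log2 change was -0.75 (SE 0.21, edgeR adjusted p = 0.00257) at 1 h, a call lost without control replicate 1 or 1 h replicate 3 (-0.60 to -0.58), and -3.65 (SE 0.33, edgeR adjusted p = 4.6e-16) at 12 h. Hist1h3e had 47.6, 42.9 and 44.2 CPM in the control, 15.8, 12.0 and 11.6 at 12 h and 22.8, 24.8 and 24.1 at 24 h, with log2 changes of -1.42 (SE 0.19, edgeR adjusted p = 9.79e-10) and -0.68 (SE 0.16, edgeR adjusted p = 0.000239). Hist1h3b had 26.8, 21.5 and 13.4 CPM in the control and 0, 2.30 and 2.37 at 24 h, and its log2 change of -3.40 was the largest fall at that time (SE 0.54, edgeR adjusted p = 8.4e-06). Hist1h3g had 57 counts in the control and 2 at 12 h, a ratio of 32.5 with a 95% counting interval of 8.59 to 275.

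H4 genes had medians of -0.97, -1.02, -1.37 and -1.06 at 1, 4, 12 and 24 h. Hist1h4d had 88.0, 87.6 and 103 CPM in the control, 39.3, 41.1 and 37.6 at 1 h, 58.6, 41.2 and 52.4 at 4 h, 51.1, 45.1 and 53.9 at 12 h and 76.8, 74.0 and 69.1 at 24 h. In CPM every treated library was below the control range, and the 24 h libraries came nearest to it. The log2 change was -1.02 (SE 0.13, edgeR adjusted p = 9.02e-10) at 1 h, -0.30 at 4 h, which was not called, and -0.12 at 24 h, which was not called. Hist1h4h had 63.0, 50.1 and 60.0 CPM in the control, 39.9, 24.8 and 31.9 at 1 h, 30.6, 25.6 and 26.5 at 4 h and 15.3, 14.8 and 14.0 at 12 h, with log2 changes of -0.61 at 1 h (SE 0.15, edgeR adjusted p = 0.000841, not called without 1 h replicate 2, at -0.48) and -1.62 at 12 h (SE 0.18, edgeR adjusted p = 1.45e-12). Hist1h4f had 45.2, 35.2 and 31.4 CPM in the control and 5.62, 7.42 and 5.78 at 12 h, a log2 change of -2.22 (SE 0.23, edgeR adjusted p = 3.72e-13). For both genes the control and 12 h libraries did not overlap, whereas the 1 h and 4 h libraries of Hist1h4h did. Hist2h4 had 25.0, 29.2 and 33.8 CPM in the control and 10.1, 10.9 and 10.5 at 1 h, a log2 change of -1.26 (SE 0.22, edgeR adjusted p = 1.59e-06). Hist4h4, the single Hist4 gene, had 21 control counts and 2 counts at 4 h, a ratio of 10.3 with a 95% counting interval of 2.51 to 90.2.

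The levels of single histone genes followed different courses after IFN-γ-primed LPS. By the calls against the control, 8 were lower at 1 h and not at 24 h, and 11 at 24 h and not at 1 h. The matching shares over all tested genes were not counted, and such a pattern of calls is no test between the times. With TMM, the direct tests between times called fewer, and in neither direction a larger share of histone genes than of all tested genes. With library size this did not hold for higher calls between 12 and 24 h, with 8 of 55 beside 7.63% of all tested genes. Between 4 and 12 h, 7 of the 55 were lower and 1 higher, beside 18.2% of all tested genes lower and 15.2% higher, with a median of -0.40. At an unadjusted p under 0.05 there were 16, and DESeq2 called 7. The 7 were Hist1h1b (log2 change -1.75, SE 0.47, edgeR adjusted p = 0.00162), Hist1h3c (-2.35, SE 0.43, edgeR adjusted p = 5.39e-06), Hist1h4h (-1.13, SE 0.20, edgeR adjusted p = 3.32e-06), Hist1h4f (-0.95, SE 0.31, edgeR adjusted p = 0.00901), Hist1h2bh, Hist1h2bn and Hist1h2af, the last at 0 counts at 12 h beside 11 at 4 h and so at least 4.28-fold lower. Hist2h2be rose by 1.88 on the log2 scale (SE 0.51, edgeR adjusted p = 0.00179). The call of Hist1h4f was lost under 5 of 7 other settings (DESeq2, library size, every gene with a count, the replicate block and only the groups compared) and on leaving out any library but 4 h replicate 2 (-1.07 to -0.86). That of Hist1h1b was lost without 4 h replicate 1 or 12 h replicate 3 (-1.43 to -1.39), that of Hist2h2be without 4 h replicate 1 or 12 h replicate 1 (1.34 to 1.66), and that of Hist1h2bh under DESeq2, library size, every gene with a count and the replicate block. Leaving out replicate 1 of the 4 h group left 3 calls, and leaving out replicate 1 of the 12 h group left 5.

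Between 12 and 24 h, 2 genes were higher and 1 lower, beside 4.22% of all tested genes higher and 9.36% lower, with a median of 0.54. At an unadjusted p under 0.05 there were 19, and DESeq2 called 2. Hist1h1c rose by 0.75 (SE 0.15, edgeR adjusted p = 4.41e-05) and Hist1h3e by 0.74 (SE 0.20, edgeR adjusted p = 0.00432), and Hist3h2a fell by 0.72 on the log2 scale (SE 0.17, edgeR adjusted p = 0.000877). The call of Hist1h3e was lost under DESeq2, with only the groups compared and without replicate 2 or 3 of either group (0.66 to 0.73). That of Hist3h2a was lost with only the groups compared and without 12 h replicate 3 or 24 h replicate 1 (-0.61 to -0.59). In this comparison the library sets that differ in the antisense share of Rn45s cannot be told apart from time.

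**Figure D3:**
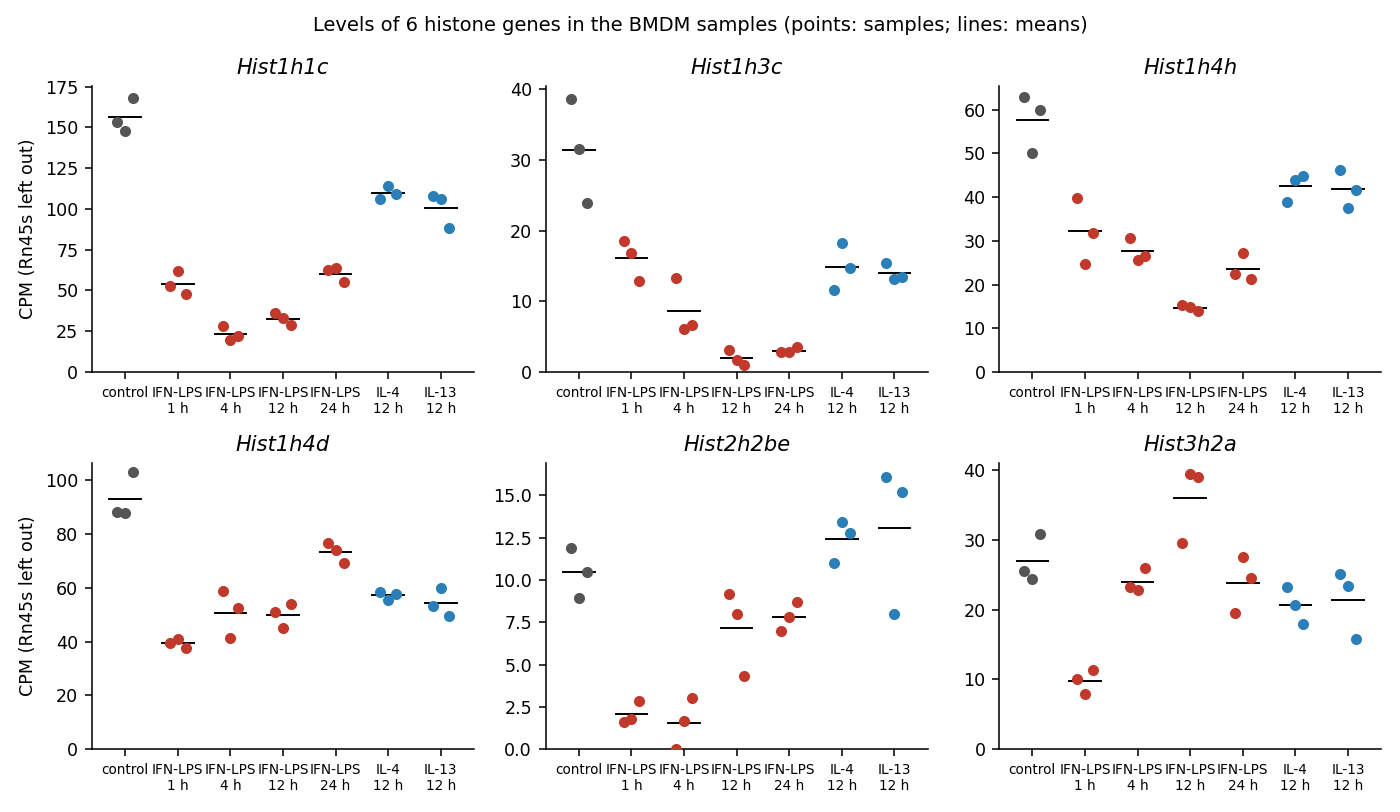
CPM in each library (points) of 6 histone genes in the 7 BMDM conditions, each panel with its own axis starting at 0 and lines at the condition means. Hist1h3c declines to at most 3.07 CPM at 12 h, Hist1h4d is lowest at 1 h (37.6 to 41.1 CPM), Hist2h2be is lowest at 1 and 4 h (at most 3.01 CPM), and Hist3h2a is lowest at 1 h and highest at 12 h (29.6 to 39.4 CPM).

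The genes were also grouped by the 3′ end that GENCODE gives them, a property the choice of genes did not use. In 18 of the 55 tested genes the annotated transcript ran at least 100 bases past the stem-loop (long), in 17 it ended within 74 bases of it (short), and in 13 it covered the coding region only. A 3′ UTR without the stem-loop was annotated for 6, and 1 had no stop codon. The median log2 change of the long, short and coding-only genes was -1.22, -1.07 and -0.85 at 1 h, -1.13, -1.36 and -1.63 at 4 h, -1.18, -2.12 and -2.51 at 12 h (the last -2.13 with bounds) and -0.89, -1.52 and -1.80 at 24 h. The long genes thus had the most negative median of the 3 groups at 1 h and the least negative at the later times. Lower calls numbered 14, 12, 15 and 11 of 18 long genes, 10, 13, 15 and 14 of 17 short genes and 6, 9, 10 and 9 of 13 coding-only genes. The 6 genes with a 3′ UTR without the stem-loop had medians of -1.86, -2.08, -1.59 and -1.54. The groups differ in class and level, and the difference between them was not tested. Counts over whole genes do not show which 3′ end a transcript used. The annotation behind the counts is not given and may end elsewhere than GENCODE. RefSeq, for instance, gives Hist1h1d a span of 776 bases, beside a GENCODE transcript of 7425. Bases past the stem-loop may therefore not have been counted.

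**Figure D4:**
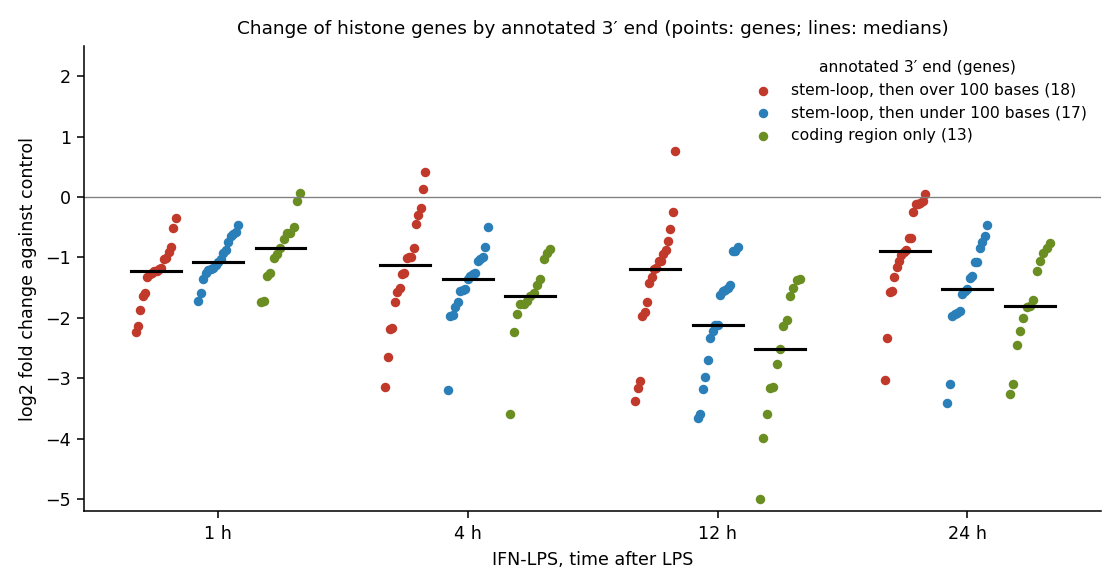
Log2 fold change against control (vertical axis) at 1, 4, 12 and 24 h of IFN-γ-primed LPS for single histone genes (points) by annotated 3′ end, long (18 genes), short (17) and coding region only (13), with lines at the medians. At 12 h the median of the long genes is -1.18, above those of the short (-2.12) and coding-only genes (-2.51). Hist1h2af at 12 h, with 0 counts, is drawn at the lower edge, the points of Hist1h2ah at 4 and 12 h (-3.59) are fitted values for groups with 0 counts, and the genes without a stem-loop in their 3′ UTR or without a stop codon are not drawn.

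With IL-4 and IL-13, cytokines of the alternative activation state, fewer histone genes were lower than with IFN-γ-primed LPS, and by less. The cytokine cultures ran for 12 h and the control for 4 h, and they lie in different library sets. Neither can be told apart from the cytokines here. With IL-4, 13 of 55 were lower and 0 higher, beside 2.47% of all tested genes lower and 3.78% higher, with a median of -0.69 (0.00 over all genes). With IL-13, 19 were lower and 0 higher, beside 3.35% lower and 4.98% higher, with a median of -0.80 (-0.01 over all genes). At an unadjusted p under 0.05 there were 38 and 37 genes, and DESeq2 called 12 and 17. Leaving out control replicate 2 or IL-4 replicate 2 left 8 and 7 calls for IL-4. By class, lower calls with IL-4 and IL-13 were 3 and 5 of 5 H1 genes, 2 and 1 of 13 H2A genes, 3 and 5 of 15 H2B genes, 4 and 5 of 10 H3 genes and 1 and 3 of 12 H4 genes. Both comparisons use the same control libraries, and 11 genes were lower in both, which is 84.6% of the IL-4 calls and 57.9% of the IL-13 calls. The matching overlap over all tested genes was not counted.

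Hist1h1c had 106, 114 and 109 CPM with IL-4 and 108, 106 and 88.4 with IL-13, below its 148 to 168 CPM in the control. Its log2 change was -0.50 with IL-4 (SE 0.12, edgeR adjusted p = 0.00142) and -0.66 with IL-13 (SE 0.12, edgeR adjusted p = 1.38e-05). Hist1h4d had 58.5, 55.5 and 57.6 CPM with IL-4 and 53.3, 59.8 and 49.5 with IL-13, and its log2 changes were -0.69 (SE 0.13, edgeR adjusted p = 3.28e-05) and -0.80 (SE 0.13, edgeR adjusted p = 1.32e-06). In both genes the cytokine libraries lay below all control libraries. Hist2h2bb had 35.3, 25.0 and 41.0 CPM with IL-4 and 37.9, 35.3 and 32.1 with IL-13, with log2 changes of -0.63 (SE 0.15, edgeR adjusted p = 0.00255) and -0.60 (SE 0.15, edgeR adjusted p = 0.00267). The largest called falls were Hist1h2ae (-1.28, SE 0.33, edgeR adjusted p = 0.00438) and Hist1h2ab (-1.24, SE 0.25, edgeR adjusted p = 0.000127) with IL-4, and Hist1h1a (-1.41, SE 0.32, edgeR adjusted p = 0.000978) and Hist1h2bj (-1.31, SE 0.32, edgeR adjusted p = 0.00214) with IL-13. The call of Hist1h2ae was lost under DESeq2, with unstranded counts (-1.03) and on leaving out any library but IL-4 replicate 2 (-1.32 to -1.21). With IL-4 the call of Hist1h1c was lost without IL-4 replicate 1 or control replicate 3 (-0.47 to -0.44) and that of Hist2h2bb without IL-4 replicate 2 or control replicate 2 or 3 (-0.62 to -0.45). With IL-13 the call of Hist2h2bb was lost without replicate 2 or 3 of either group (-0.61 to -0.54), that of Hist1h2bj without IL-13 replicate 2 or 3 or control replicate 1 or 2 (-1.30 to -1.13) and that of Hist1h1a without IL-13 replicate 3 or control replicate 1 (-1.28 to -1.18). Hist1h2bc had values near the control, with 92.7, 89.0 and 94.8 CPM with IL-4 and log2 changes of 0.23 and 0.10 that were not called.

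Between IL-13 and IL-4, edgeR called 0 histone genes in either direction, beside 0.0754% of all tested genes higher and 0% lower. There were 5 at an unadjusted p under 0.05, DESeq2 called 0, and the median was -0.07. Against IL-4 at the same 12 h, IFN-γ-primed LPS had 28 histone genes lower and 1 higher (all genes 19.9% lower and 21.1% higher, histone median -1.11). Against IL-13 it had 27 lower and 1 higher (all genes 20.0% lower and 21.0% higher, histone median -1.02). The 1 higher gene was Hist3h2a in both, by 1.14 (SE 0.19, edgeR adjusted p = 2.65e-07) and 1.13 (SE 0.19, edgeR adjusted p = 2.45e-07). Hist1h2af, with 0 counts, was at least 9.39-fold and 11.4-fold lower than with IL-4 and IL-13. Hist1h3g had ratios of 14.1 (95% counting interval 3.50 to 123) and 13.6 (3.39 to 119). Hist1h4d was at 45.1 to 53.9 CPM with IFN-γ-primed LPS at 12 h, and its log2 differences from IL-4 and IL-13 of 0.16 and 0.26 were not called and were -0.19 and -0.11 with library size. These comparisons share the time but set the library sets against each other.

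RAW264.7 cells expressed the family at 12.9 times the control BMDM level in summed CPM. Of the 55 tested genes, 54 were higher than in control BMDMs and 0 lower, beside 31.9% of all tested genes higher and 33.7% lower, with a median log2 difference of 3.58 (-0.06 over all genes). Hist2h2bb had 2085 and 2162 CPM in untreated RAW264.7 cells, a log2 difference of 5.09 (SE 0.12, edgeR adjusted p = 3.85e-49). Hist1h2bp differed by 5.44 (SE 0.35, edgeR adjusted p = 3.13e-23), with 73.9 and 75.4 CPM beside 0.582 to 2.38 in control BMDMs. The smallest called differences were those of Hist1h2bc (1.41, SE 0.12, edgeR adjusted p = 5.58e-17), with 230 and 267 CPM, and Hist3h2a (1.92, SE 0.16, edgeR adjusted p = 6.31e-18), with 121 and 122 CPM. Hist2h2be was the 1 gene not called, at 17.0 and 16.9 CPM and a log2 difference of 0.44. The comparison is between a cell line in one medium and primary cells in another, and these cannot be told apart.

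LPS alone for 4 h lowered the family in RAW264.7 cells to 0.509 of its untreated sum. There, 52 of 55 genes were lower and 0 higher, beside 9.61% of all tested genes lower and 8.90% higher, with a median of -0.92 (-0.02 over all genes). All 55 had an unadjusted p under 0.05, and DESeq2 called 46. By class, 5 of 5 H1, 12 of 13 H2A, 14 of 15 H2B, 10 of 10 H3 and 11 of 12 H4 genes were lower. Hist2h2bb had 1199 and 1073 CPM with LPS, a log2 change of -0.76 (SE 0.11, edgeR adjusted p = 1.14e-08). Hist1h2an went from 107 and 106 to 38.1 and 29.3 CPM (-1.52, SE 0.20, edgeR adjusted p = 1.9e-09) and Hist1h2af from 130 and 140 to 39.9 and 46.0 CPM (-1.51, SE 0.18, edgeR adjusted p = 6.79e-11). The smallest called falls were those of Hist1h1e (-0.52, SE 0.12, edgeR adjusted p = 0.000373) and Hist1h4d (-0.56, SE 0.11, edgeR adjusted p = 1.98e-05). The call of Hist1h1e was lost on leaving out replicate 2 of either group (-0.43 to -0.35). Hist1h2ah, Hist1h4c and Hist3h2bb-ps were not called.

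The 4 h change in RAW264.7 cells was compared with the 4 h change in BMDMs by an interaction term, in which a positive value means that the gene fell less in RAW264.7 cells. Of 55 genes, 6 were positive and 2 negative, beside 9.75% of all tested genes positive and 15.3% negative, with a median of 0.43, and DESeq2 called 7. The share of histone genes called positive was near that of all genes. Of the 6, 4 were H1 genes, out of 5 tested: Hist1h1d (2.04, SE 0.35, edgeR adjusted p = 2.25e-06), Hist1h1c (1.61, SE 0.19, edgeR adjusted p = 9.92e-11), Hist1h1b (1.09, SE 0.30, edgeR adjusted p = 0.00293) and Hist1h1e (0.98, SE 0.22, edgeR adjusted p = 0.000207). The other two were Hist1h2bb (1.08, SE 0.30, edgeR adjusted p = 0.00334) and Hist2h2bb (0.81, SE 0.23, edgeR adjusted p = 0.00281). Hist3h2a (-1.18, SE 0.25, edgeR adjusted p = 7.01e-05) and Hist1h2be (-0.73, SE 0.22, edgeR adjusted p = 0.00745) were negative. With library size in place of TMM, 13 genes were positive and 0 negative, so both negative calls were lost. That of Hist1h2be was also lost under DESeq2, with Rn45s kept, with every gene with a count and without replicate 1 or 2 of the 4 h BMDM group, replicate 1 or 3 of the BMDM control or replicate 2 of either RAW264.7 group (-0.76 to -0.62). Leaving out replicate 2 of the 4 h BMDM group left 4 calls, and leaving out RAW264.7 LPS replicate 1 left 5. Without either of these 2 libraries Hist1h1b, Hist1h2bb and Hist2h2bb were not called, nor were Hist1h1b and Hist1h2bb without 4 h BMDM replicate 3, Hist1h2bb without BMDM control replicate 2 or Hist2h2bb without RAW264.7 control replicate 1. Over the libraries named for each, the values were 0.87 to 1.00 for Hist1h1b, 0.95 to 1.01 for Hist1h2bb and 0.62 to 0.77 for Hist2h2bb. The cell type, the strain, the medium and IFN-γ differ together between these arms and cannot be told apart.

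Scaling bears on these counts. With library size in place of TMM the median log2 change of all genes moved by -0.22, -0.58, -0.35 and -0.23 at 1, 4, 12 and 24 h, by 0.23 between 4 and 12 h, by 0.12 between 12 and 24 h, by -0.35 and -0.37 for 12 h against IL-4 and IL-13, by -0.14 for LPS in RAW264.7 cells, by 0.24 for RAW264.7 against BMDM cells and by 0.44 for the interaction. Among all calls, the percentage higher went from 58.8 to 34.5 at 1 h, from 52.1 to 23.3 at 4 h, from 51.8 to 29.8 at 12 h and from 52.1 to 34.8 at 24 h. It went from 45.5 to 65.5 between 4 and 12 h, from 31.1 to 52.9 between 12 and 24 h, from 51.5 to 29.6 and from 51.3 to 28.0 for 12 h against IL-4 and IL-13, from 48.1 to 32.3 for LPS in RAW264.7 cells and from 39.0 to 70.1 for the interaction. The histone genes called lower at 1, 4, 12 and 24 h then numbered 40, 48, 48 and 43, with 0 higher at each time. Of all tested genes, 18.9, 47.1, 35.0 and 29.2% were then lower at these times. Between 12 and 24 h, 8 histone genes were then higher and 1 lower, beside 7.63 and 6.78% of all tested genes. With IL-4 and IL-13 the shift was -0.01 and 0.01. No histone gene called with TMM had the opposite sign with library size in any comparison, while among those not called 2 of 55 did at 4 h, 6 between 4 and 12 h and 9 for the interaction.

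Counts of other gene lists are read beside the shares of all tested genes called higher and lower, which were 14.7 and 10.3% at 1 h, 25.3 and 23.2% at 4 h, 23.2 and 21.6% at 12 h, 22.3 and 20.5% at 24 h, 8.90 and 9.61% for LPS in RAW264.7 cells, and 31.9 and 33.7% for RAW264.7 against BMDM cells. Of 30 genes that mark S phase, the period in which this family is expressed, 1 was lower at 1 h. Their summed CPM was 866 ± 34.1 at 1 h beside 789 ± 63.2 in untreated cells (SD, n = 3 each), or 110% of the control mean, when the histone sum was at 40.6%. At 1 h, 3 of the 30 were higher, and the median log2 change was 0.33. Pcna, the sliding clamp of the replication machinery, rose by 0.58 (SE 0.10, edgeR adjusted p = 7.5e-07), Fen1 by 1.12 and Mcm5 by 0.65, and Cdt1 fell by 0.82 on the log2 scale. With library size the count at 1 h was 2 higher and 1 lower. At 4, 12 and 24 h the S phase sum was 54.6, 46.7 and 45.4% of the control mean, with 15, 16 and 17 genes lower and 2, 1 and 1 higher. Pcna made up a large part of the S phase sum. It was at 253 CPM in the control and at 324, 230, 119 and 92.5 CPM at 1, 4, 12 and 24 h. Pcna accounted for most of the rise of the sum at 1 h, and the sum without it was not taken. Ccna2, which encodes the S and G2 phase cyclin A2, fell by 2.33 on the log2 scale at 4 h (SE 0.30, edgeR adjusted p = 2.01e-10) and by 4.19 at 24 h (SE 0.33, edgeR adjusted p = 1.48e-18). Ccne1, which encodes the G1/S cyclin E1, rose by 2.95 at 4 h (SE 0.28, edgeR adjusted p = 2.06e-15).

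With IL-4 and IL-13 the S phase sum was 88.5 and 84.8% of the control, with 2 genes lower in each: Ccna2 (-1.09) and Tk1 (-1.20) with IL-4, and Rrm1 (-0.54) and Rrm2 (-0.98) with IL-13. In RAW264.7 cells, 28 of the 30 were higher than in control BMDMs (median 3.05), and LPS lowered 23 of them (median -0.90), among them Tk1 by a log2 change of -2.16 (SE 0.15, edgeR adjusted p = 1.11e-20). The S phase sum there was 685% of the control BMDM mean untreated and 352% with LPS.

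Replication-independent histone genes are those of histone variants, most of which are expressed outside S phase too. H2afx, on this list, also makes a stem-loop mRNA. Their summed CPM over 12 genes was 181, 150, 122 and 115% of the control mean after 1, 4, 12 and 24 h. H3f3b carried the first values: without it the other 11 genes stood at 92.4, 80.2, 112 and 112%, a sum added after the values were seen. H3f3b, which encodes the replacement histone H3.3, was at 1130 ± 5.18 CPM at 1 h beside 339 ± 5.13 in untreated cells (SD, n = 3 each), a log2 change of 1.96 (SE 0.08, edgeR adjusted p = 1.59e-32). Of the 9 tested, 1 was higher and 0 lower at 1 h (1 and 2 with library size), 4 higher and 3 lower at 4 h, 3 and 3 at 12 h, and 3 and 2 at 24 h. At 4 h H2afy, which encodes macroH2A1, rose by 1.48 (SE 0.14, edgeR adjusted p = 8.9e-16), whereas H1f0, the linker histone of resting cells, fell by 2.43 (SE 0.24, edgeR adjusted p = 2.25e-14) and the centromere histone gene Cenpa by 1.47 (SE 0.30, edgeR adjusted p = 2.11e-05), all on the log2 scale. With IL-4 and IL-13 the sum was 95.2 and 95.1% of the control, with median log2 changes of -0.06 and -0.29. In RAW264.7 cells 6 of 9 were higher than in control BMDMs, and LPS raised 1 and lowered 1.

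**Figure D5:**
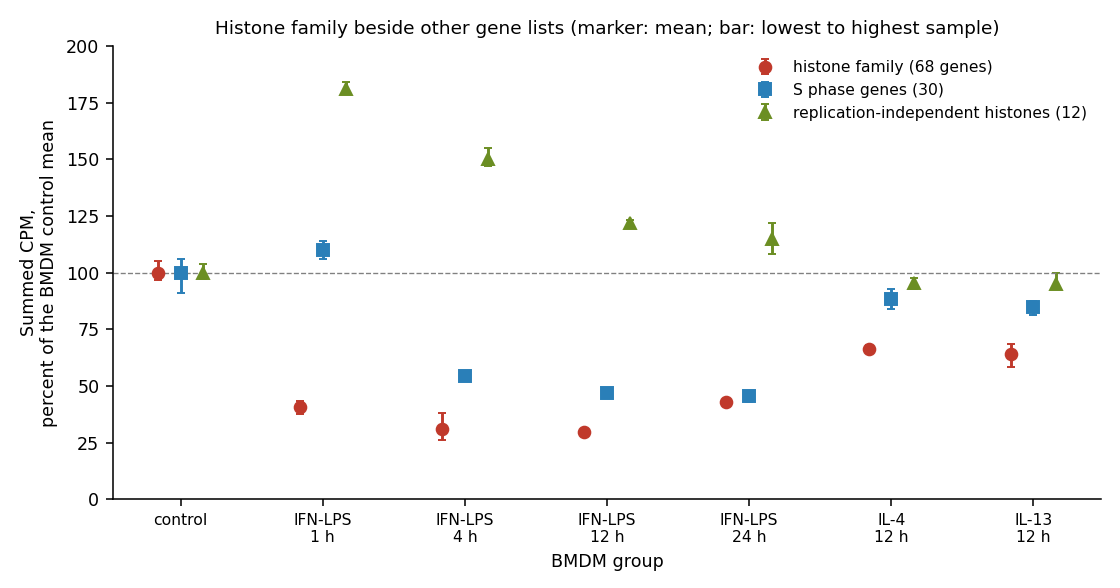
Summed CPM as a percentage of the control BMDM mean for the 68 histone genes, 30 S phase genes and 12 replication-independent histone genes in the 7 BMDM conditions, with markers at the means of 3 libraries and bars from the lowest to the highest library. At 1 h the 3 groups stand at 40.6, 110 and 181%, and at 12 h at 29.8, 46.7 and 122%. The replication-independent value at 1 h is 92.4% without H3f3b. Pcna makes up a large part of the S phase sum, with 253 CPM in the control and 324 CPM at 1 h.

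Of 16 tested genes of histone mRNA transcription and processing, 2 were higher and 1 lower at 1 h, 3 and 1 at 4 h, 3 and 3 at 12 h, and 5 and 3 at 24 h, with summed CPM at 89.0 to 91.5% of the control mean. Npat, which encodes the coactivator of histone gene transcription at the onset of S phase, was at 22.8 ± 4.23 CPM at 12 h beside 50.1 ± 8.31 in untreated cells (SD, n = 3 each), a log2 change of -0.79 (SE 0.17, edgeR adjusted p = 7.6e-05). Slbp was at 14.0 ± 5.59 CPM in the control and 15.2 ± 2.16 at 1 h. Papd4, which encodes a poly(A) polymerase, rose by 0.72 at 1 h (SE 0.13, edgeR adjusted p = 4.62e-06) and by 1.17 at 4 h (SE 0.13, edgeR adjusted p = 3.11e-12). With IL-4 and IL-13 the medians were -0.01 and -0.04. In RAW264.7 cells 12 of 16 were higher than in control BMDMs and 1 lower, and LPS lowered 6, among them Casp8ap2 (-1.45, SE 0.18, edgeR adjusted p = 4.4e-10) and Npat (-1.05, SE 0.15, edgeR adjusted p = 1.88e-08).

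Histone chaperones, which carry histones to and from DNA, were 2 higher and 1 lower of 16 at 1 h, 3 and 2 at 4 h, 5 and 3 at 12 h, and 4 and 1 at 24 h. Hat1, which encodes the acetyltransferase of newly made H4, was at 104 ± 8.33 CPM at 12 h beside 28.9 ± 2.61 in untreated cells (SD, n = 3 each), a log2 change of 2.20 (SE 0.15, edgeR adjusted p = 1.4e-21). Daxx, an H3.3 chaperone gene, rose by 4.09 at 4 h (SE 0.14, edgeR adjusted p = 3.43e-39), and Nap1l1 fell by 1.29 on the log2 scale at 24 h (SE 0.17, edgeR adjusted p = 6.31e-10). With IL-4 the median was 0.00, and with IL-13 1 gene was lower, Nap1l1 (-0.77, SE 0.16, edgeR adjusted p = 0.000247). In RAW264.7 cells 13 were higher than in control BMDMs and 1 lower, and LPS lowered 5, among them Chaf1b, a subunit of the chaperone that deposits H3 and H4 on new DNA (-1.93, SE 0.22, edgeR adjusted p = 1.05e-10), and raised 1.

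The 13 histone genes that were not tested had few or no counts. Over all 25 libraries, Hist3h2ba had 40 counts, Hist1h1t, the testis H1, had 2 and Hist1h2ba, a testis H2B, had 1. The other 10 were at 0 in every library, which allows up to 3 counts in each: Hist1h2aa, Hist1h2ao, Hist1h2ap, Hist1h2bq, Hist1h2br, Hist1h4m, Hist2h2aa1, Hist2h2aa2, Hist2h3c1 and Hist2h3c2. Only uniquely mapped reads were counted, so a gene whose copies are identical loses its reads. In GENCODE transcripts, every window of 101 bases (the read length) of Hist1h2bq and Hist2h2aa2 was shared with another gene, whereas in 10 of the 68 genes no window was. Reads shared by near-identical family members may be lost from single genes and from the sums, and the size of this loss was not measured.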

How the data were processed

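RNA was sequenced from 21 BMDM and 4 RAW264.7 samples in 9 conditions taken from the sample labels. Samples given LPS alone were not analysed here for BMDMs. By the study's methods and processing notes, the authors trimmed reads with Trimmomatic 0.33, aligned them to mm10 with STAR 2.5.1 and deposited raw counts of uniquely mapped reads per gene symbol and strand, with no normalization. The annotation release is not given in the sources used here. Of the mapped reads, 68.0 to 73.1% were on no gene and stayed out of library sizes.

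Sense counts were used. Rn45s was removed, since it took 20.1 to 39.8% of the counts. The remaining counts were fitted in R 4.3.3 with edgeR 4.0.16 (filterByExpr by group, TMM, robust quasi-likelihood, 9 group means over 25 samples). Each standard error was obtained by dividing the size of the log2 change by the root of its F statistic. Calls were made at a Benjamini-Hochberg adjusted p of at most 0.01 over all 10612 genes. CPM and figures came from Python 3.11.15. The steps were tested on simulated data. The histone family, the other gene lists and the tests were chosen with earlier results of these data known. The histone genes named were the 12 with the highest mean over the conditions, and in each comparison the 2 largest and 2 smallest log2 changes among those called. Of the other lists, up to 4 called genes with the smallest adjusted p were named in each comparison. Slbp, Hist1h4c, Hist1h2bh, Hist1h2bn and the genes listed as not called or not tested were named after their values were seen. The samples are described as biological replicates, and p-values measure the spread between these samples. The alternatives were DESeq2 1.42.0, library size without TMM, all genes with a count, unstranded counts, Rn45s kept, only the groups compared, a replicate block, the study's fold-change cutoff and leaving out each library. The sum of replication-independent histones without H3f3b was added after seeing the data.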

Additional observations from a re-analysis of the deposited data

Results flagged for a closer look

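In 8 of 55 histone genes the 4 h change in RAW264.7 cells given LPS differed from the 4 h change in BMDMs given IFN-γ-primed LPS by the edgeR interaction test at an adjusted p of at most 0.01. Over all tested genes, 9.75% were called positive and 15.3% negative, and histone genes were not called more often than these shares together. The difference, RAW264.7 minus BMDM, was 1.09 for Hist1h1b, 1.61 for Hist1h1c, 2.04 for Hist1h1d, 0.98 for Hist1h1e, 1.08 for Hist1h2bb and 0.81 for Hist2h2bb on the log2 scale, all of which fell in both cell types and fell less in RAW264.7 cells. It was -0.73 for Hist1h2be and -1.18 for Hist3h2a, which fell in RAW264.7 cells and had log2 changes of 0.14 and 0.41 in BMDMs that were not called and were -0.44 and -0.17 with library size in place of TMM. Neither negative difference was called with library size in place of TMM (-0.29 and -0.74).

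A signal on the strand not used for the comparisons was present at Hist1h2ae, where BMDMs given IL-13 had 9 antisense counts, a mean of 1.78 CPM (1.69 to 1.93 in the 3 libraries). The control had 4 antisense counts, a mean of 0.789 CPM (0.582 to 1.19), and IL-4 had 7, a mean of 1.42 CPM (0.610 to 1.92), overlapping both. Hist2h2ab had more antisense counts, 27 in the control (mean 5.33 CPM) and 28 with IL-13 (mean 5.49 CPM), with Hist2h2ac as its neighbour on the other strand.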

How the results depend on the processing

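No called histone gene named in the text changed direction under any alternative run, whereas some changes that were not called turned sign with library size, and the balance of calls over all genes moved as given above. The counts of called histone genes stayed within 1.5 times of the values given above under DESeq2, all genes with a count, unstranded counts and Rn45s kept. With the study's log2 fold-change cutoff added they were 12, 23 and 22 at 1, 4 and 24 h, 0 between 12 and 24 h, 17 and 17 for 12 h against IL-4 and IL-13, 0 for LPS in RAW264.7 cells and 1 for the interaction. This cutoff removes smaller changes by construction. With only the groups compared in the fit they were 2 between 4 and 12 h, 1 between 12 and 24 h and 20 with IL-4. With library size only they were 9 between 12 and 24 h and 13 for the interaction. The cause of these differences was not tested.

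Summed CPM scale with the denominator. With TMM-normalized CPM the sums were 1315 in the control, 609, 502 and 663 at 4, 12 and 24 h, 881 with IL-4, 833 with IL-13, and 14358 and 8018 in RAW264.7 cells without and with LPS. With Rn45s kept they were 916 in the control, 404, 300, 307 and 443 at 1, 4, 12 and 24 h, 609 with IL-4, 608 with IL-13, and 14456 and 7477 in RAW264.7 cells.

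Leaving out 1 library at a time gave 29 to 35, 31 to 39, 39 to 46 and 33 to 36 calls at 1, 4, 12 and 24 h, 3 to 9 between 4 and 12 h, 2 to 3 between 12 and 24 h, 7 to 12 with IL-4, 13 to 20 with IL-13, 0 to 0 between the cytokines, 26 to 28 and 21 to 27 for 12 h against IL-4 and IL-13, 40 to 52 for LPS in RAW264.7 cells, 54 to 55 for RAW264.7 against BMDM cells and 4 to 8 for the interaction. Of 220 calls of named genes, 53 were ended by leaving out some library, 16 by DESeq2 and 5 by library size only.

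The replicate numbers were not taken as pairing the samples. Correlations of same-numbered samples ran from -0.0704 to 0.199 (mean 0.0197, 65 pairs), and not every pair reached 0.1. Such values cannot exclude a pairing. The mean was -0.0100 over 128 pairs with different numbers, and 13 of 21 BMDM samples, not all, correlated best with their own number, a hint from the data and not from the design. A fit with the replicate number as a block ended 1 of the 220 calls, Hist1h4f between 4 and 12 h (-0.95), and outside them that of Hist1h2bh there, and moved no count of calls by over 1.5 times. Genes with few counts limit the precision, since BMDM libraries held 675 to 2564 counts over the whole family.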
